A study of Homo sapiens with 6 samples.

Results

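The genes described here are 10 members of the bone morphogenetic protein (BMP) pathway. They are the ligands BMP4 and BMP7, the type I receptors BMPR1A and BMPR1B, the type II receptor BMPR2, the signal transducers SMAD1 and SMAD5, and the target genes ID1, ID2 and ID3. They were taken by symbol from the deposited gene tables, in which all 10 were found among 27968 genes, and all 10 passed the filter on low counts. RNA was sequenced from T47D, a human luminal breast cancer cell line positive for the estrogen and progesterone receptors, 48 hours after transfection in RPMI medium with serum. One group received a control siRNA and the other an siRNA specific to HOTAIR-N, which belongs to the HOTAIR long noncoding RNA gene, with 3 libraries from separate transfections in each group. All 6 libraries share this cell line, and each group rests on a single siRNA label.

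BMPs are secreted ligands of the TGF-beta superfamily that bring together type I and type II serine/threonine kinase receptors. The activated type I receptor phosphorylates SMAD1, SMAD5 and SMAD9, which join SMAD4 and enter the nucleus, where the ID genes are among their best known direct targets. ID proteins have a helix-loop-helix domain without a DNA-binding region, so they hold E proteins such as TCF3 and TCF12 off DNA. In breast epithelium ID1 is known for its part in restraining differentiation.

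Total expected counts were 31777001 to 36707169 per library. HOTAIR fell to 34.7% of control (log2 fold change -1.53, SE 0.07, edgeR adjusted p = 2.1e-09), a value for the whole gene, since the HOTAIR-N form was not matched to a listed transcript. The 8 luminal markers summed to 8966 to 10180 TPM with the control siRNA and 7961 to 8833 TPM with the HOTAIR-N siRNA, led by KRT8 at 4311 and 4098 TPM on average in the groups. All 8 were above 1 TPM on average in both groups, and 6 of them were called lower. ESR1 fell to 32.1% and PGR to 36.4% of control (edgeR adjusted p = 1.9e-10 and 2.2e-09). KRT18, EPCAM, GATA3 and FOXA1 fell to between 65.8% and 80.6% of control, and KRT8 and KRT19 were not called. The 3 endothelial markers summed to at most 0.05 TPM and the 4 leukocyte markers to at most 0.85 TPM, while the 5 fibroblast markers summed to 8.85 to 10.2 and 7.7 to 8.95 TPM, nearly all of it COL1A1. The 5 basal markers summed to 22.2 to 24.6 and 86.4 to 94.9 TPM through ACTA2, with KRT5 and KRT14 below 0.1 TPM on average in both groups. MYLK, also among them, was called lower, at 73.5% of control (edgeR adjusted p = 0.023), and TP63 was not called. The part of these shifts in the results below was not tested. Replicate 2 of the control siRNA and replicate 3 of the HOTAIR-N siRNA deviated most alike from their groups (r = 0.22 across tested genes, which are not independent). Counts are also given without these libraries. Replicate 1 of the control siRNA and replicate 2 of the HOTAIR-N siRNA were near that, at r = 0.17.

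The HOTAIR-N siRNA went with less mRNA of the main BMP receptors, BMPR1A and BMPR2, with less BMP7 and SMAD5, and with more ID3, while ID1 and ID2 stayed close to control. Of the 10 members, 1 rose (ID3) and 4 fell (BMP7, BMPR1A, BMPR2 and SMAD5) at an adjusted p under 0.05. Over all 14919 genes tested 71.1% were called, 36.2% higher and 34.8% lower, so a count of 5 in 10 is no larger than the background of this comparison. The groups did not overlap in 7 of the 10 members, against 73.4% of all genes. The median log2 fold change was -0.06 over the members and 0.02 over all genes. Without the pair of libraries named above, 6 members were called, 2 higher and 4 lower, the addition being SMAD1. In bulk RNA, fewer cells that express a gene and less RNA per cell cannot be told apart.

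**Figure D1:**
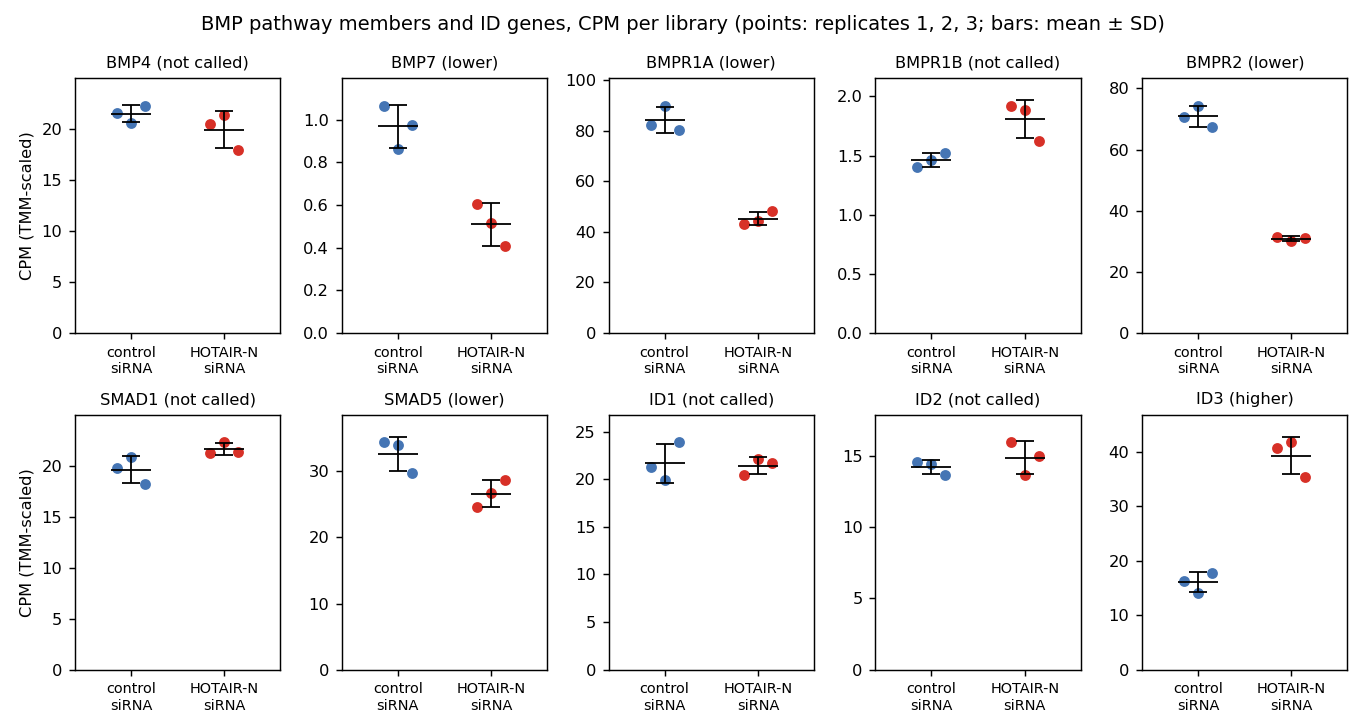
TMM-scaled CPM (y axis, from 0, its own scale in each panel) of the 10 members in each library, with points for replicates 1, 2 and 3 from left to right and bars for the mean ± SD (n = 3). BMPR1A, BMPR2 and BMP7 lie lower and ID3 higher in all 3 HOTAIR-N siRNA libraries, while the groups of BMP4, ID1 and ID2 overlap.

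BMP4 was the main ligand among the members in these cells, and its level differed little between the groups. BMP4, which binds BMPR1A and BMPR1B, stood at 21.5, 20.6 and 22.3 CPM in control siRNA replicates 1, 2 and 3 and at 20.5, 21.4 and 17.9 CPM in those of the HOTAIR-N siRNA. Replicate 3 of the HOTAIR-N siRNA was the lowest of the 6, and the groups overlapped. The log2 fold change of BMP4 was -0.11 (SE 0.07, 95% interval -0.27 to 0.05, edgeR adjusted p = 0.21).

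BMP7, a ligand that also acts through activin type receptors, was scarce and fell. It had 38, 29 and 34 counts with the control siRNA and 22, 17 and 14 with the HOTAIR-N siRNA, or 0.967 ± 0.101 and 0.509 ± 0.0994 CPM (SD, n = 3). Each HOTAIR-N siRNA library lay below each control library. The fall was to 52.8% of control (log2 fold change -0.92, SE 0.23, adjusted p = 0.0029), with a wide 95% interval of -1.41 to -0.43 from so few counts. The ratio of ligands per length also shifted, since BMP4 stood at 23.7 and 22.3 TPM on average and BMP7 at 0.46 and 0.247 TPM.

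Of the 3 receptor genes among the members, BMPR2 and BMPR1A fell and BMPR1B was not called. BMPR2, the type II receptor that phosphorylates the type I receptors, stood at 70.7, 74.3 and 67.5 CPM with the control siRNA and at 31.4, 30.0 and 31.1 CPM with the HOTAIR-N siRNA. The groups lay far apart beside their spread. BMPR2 fell to 43.5% of control (log2 fold change -1.2, SE 0.06, adjusted p = 2.2e-09), and 11.3% of tested genes had a larger change in size.

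BMPR1A, the widely expressed type I receptor, stood at 82.2, 89.9 and 80.2 CPM and at 43.1, 44.4 and 48.1 CPM. It fell to 53.7% of control (log2 fold change -0.90, SE 0.06, adjusted p = 6.9e-08). Every HOTAIR-N siRNA library was below every control library, as for BMPR2. The log2 fold changes of BMPR2 and BMPR1A ranged from -1.24 to -1.1 and from -0.95 to -0.80 over the alternative analyses, and each remained called in all of them.

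BMPR1B, a close relative of BMPR1A, was near the floor of detection, with 50, 49 and 53 counts with the control siRNA and 70, 62 and 56 counts with the HOTAIR-N siRNA. All 3 HOTAIR-N siRNA libraries were higher, at 1.81 ± 0.163 against 1.46 ± 0.0585 CPM (SD, n = 3), but the log2 fold change of 0.31 (SE 0.15, 95% interval -0.02 to 0.64) did not pass the test (edgeR adjusted p = 0.087). It was called higher when libraries were scaled by their totals alone (adjusted p = 0.029) or by upper quartiles (adjusted p = 0.046). Since BMPR1A made up 98.9% ± 0.0824 and 97.4% ± 0.357 (SD, n = 3) of the summed TPM of BMPR1A and BMPR1B, the sum of the 3 member receptors went with BMPR1A and BMPR2. That sum was 55.5, 59.7 and 53.4 TPM with the control siRNA and 28.9, 29.6 and 31.7 TPM with the HOTAIR-N siRNA. For such single values the exact two-sided permutation test of 3 against 3 libraries gave p = 0.1, the smallest it can give.

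Of the receptor-regulated SMADs among the members, SMAD5 fell and SMAD1 was not called. SMAD5 went from 34.4, 33.9 and 29.7 CPM to 24.5, 26.7 and 28.7 CPM, or to 81.5% of control (log2 fold change -0.29, SE 0.08, adjusted p = 0.0039). The lowest control library and the highest HOTAIR-N siRNA library were close to each other, and SMAD5 was not called in a test against a 1.2-fold change (adjusted p = 0.26). SMAD1, its close homolog, stood at 19.8, 20.8 and 18.2 CPM with the control siRNA and at 21.2, 22.3 and 21.4 CPM with the HOTAIR-N siRNA. The groups did not overlap, and its log2 fold change of 0.14 (SE 0.07, 95% interval -0.0012 to 0.29) did not pass the test (edgeR adjusted p = 0.07). SMAD1 was called higher without control siRNA replicate 2 (log2 fold change 0.18, adjusted p = 0.024), with library totals alone (0.24, adjusted p = 0.0051) and with upper-quartile scaling (0.20, adjusted p = 0.014). The summed level of SMAD1 and SMAD5 was 21.9 ± 1.5 TPM with the control siRNA and 21.9 ± 0.853 TPM with the HOTAIR-N siRNA (SD, n = 3, exact two-sided permutation p = 1). TPM is per transcript length and, unlike the CPM above, is not TMM-scaled. The sum was not tested in CPM, so its equality holds for TPM only.

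Among the ID genes only ID3 was called. ID3 stood at 16.3, 14.1 and 17.8 CPM with the control siRNA and at 40.8, 41.7 and 35.4 CPM with the HOTAIR-N siRNA. The lowest HOTAIR-N siRNA library, replicate 3, was well above the highest control library. ID3 rose 2.44-fold (log2 fold change 1.29, SE 0.09, 95% interval 1.09 to 1.48, adjusted p = 7.3e-08), and 9.71% of tested genes had a larger change in size. Over the alternative analyses its log2 fold change was 1.2 to 1.38, and it was called in each.

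ID1, the ID gene most often used as a readout of BMP signalling, stood at 21.3, 19.9 and 23.9 CPM and at 20.4, 22.1 and 21.7 CPM. The HOTAIR-N siRNA libraries lay within the range of the control libraries. Its log2 fold change was -0.02 (SE 0.07, 95% interval -0.18 to 0.14, edgeR adjusted p = 0.84). ID2 stood at 14.6, 14.4 and 13.7 CPM and at 15.9, 13.7 and 15 CPM, with overlapping groups and a log2 fold change of 0.07 (SE 0.07, 95% interval -0.09 to 0.23, edgeR adjusted p = 0.44). The intervals of ID1 and ID2 do not reach the lower bound for ID3. ID4, a further family member outside the 10, stood at 3.25 ± 0.387 and 2.62 ± 0.217 CPM (SD, n = 3) and was not called (log2 fold change -0.31, SE 0.13, edgeR adjusted p = 0.053).

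The make-up of the ID transcripts changed with ID3. Summed over ID1, ID2 and ID3, the level was 98, 90.2 and 104 TPM with the control siRNA and 142, 145 and 136 TPM with the HOTAIR-N siRNA. ID3 made up 28.8%, 26.9% and 29.4% of that sum in the control libraries and 50.1%, 50.6% and 46.2% in the HOTAIR-N siRNA libraries. Both quantities separated the groups fully (exact two-sided permutation p = 0.1, the smallest 3 against 3 allows).

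Since the ID genes differed in response, the 250 bases before their start sites are shown, from RefSeq on GRCh38.p14, with CCAAT on either strand (ATTGG when on the other strand) and TATAAA on either strand (TTTATA when on the other) in capitals. The deposited tables use hg19, and only gene symbols link them to these windows.
ID1 chr20:31605039-31605288, plus strand: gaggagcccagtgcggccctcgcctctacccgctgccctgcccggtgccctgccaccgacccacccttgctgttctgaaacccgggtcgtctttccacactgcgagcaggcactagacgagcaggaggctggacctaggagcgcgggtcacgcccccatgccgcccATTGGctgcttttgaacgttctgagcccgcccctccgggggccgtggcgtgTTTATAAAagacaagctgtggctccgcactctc
ID2 chr2:8681806-8682055, plus strand: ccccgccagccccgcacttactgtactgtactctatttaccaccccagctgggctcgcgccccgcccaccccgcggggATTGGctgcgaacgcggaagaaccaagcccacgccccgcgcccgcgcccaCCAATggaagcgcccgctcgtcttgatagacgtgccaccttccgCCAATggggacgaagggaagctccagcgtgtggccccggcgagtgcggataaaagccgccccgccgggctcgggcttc
ID3 chr1:23559502-23559751, minus strand: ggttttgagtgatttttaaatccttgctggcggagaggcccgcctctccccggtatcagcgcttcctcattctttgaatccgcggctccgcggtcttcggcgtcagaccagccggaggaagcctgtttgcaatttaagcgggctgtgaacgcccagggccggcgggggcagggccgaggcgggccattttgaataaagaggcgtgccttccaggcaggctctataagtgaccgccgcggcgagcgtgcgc
In the ID1 window the first motif was found once, on the other strand, and the exact letters TATAAA on both strands in overlapping positions. The ID2 window held the first motif 3 times and no exact TATAAA, and the ID3 window held neither. Near forms, such as tataag in the ID3 window, were not searched, so a TATA element there is not excluded. Of 35116 windows of this length, 32% held the first motif and 10.7% the exact TATAAA. The palindrome GGCGCC, which BMP-regulated SMADs can bind, was in none of the 3 ID windows and in 16.4% of all windows. The E-box, CANNTG, bound by E proteins, was found once in ID2, in neither of the others and in 61.8% of all windows. These are matches of letters in a short window, and say nothing of elements farther away.

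Levels per transcript length placed the members in a different order in the groups. With the control siRNA the order by mean TPM was ID1 (47.8), BMPR1A (44.8), ID3 (27.7), BMP4 (23.7), ID2 (21.9), SMAD1 (13.1), BMPR2 (10.9), SMAD5 (8.77), BMPR1B (0.503) and BMP7 (0.46). The ranges over the 3 libraries overlapped for the neighbours ID1 and BMPR1A, ID3 and BMP4, and BMPR1B and BMP7, and for no other neighbours. With the HOTAIR-N siRNA, ID3 led at 68.9 TPM, followed by ID1 (48.4), BMPR1A (24.6), ID2 (23.4), BMP4 (22.3), SMAD1 (14.6), SMAD5 (7.3), BMPR2 (4.85), BMPR1B (0.643) and BMP7 (0.247). There only BMPR1A and ID2, and ID2 and BMP4, overlapped. ID3 thus moved from the third place to the first, and BMPR2 from above to below SMAD5.

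**Figure D2:**
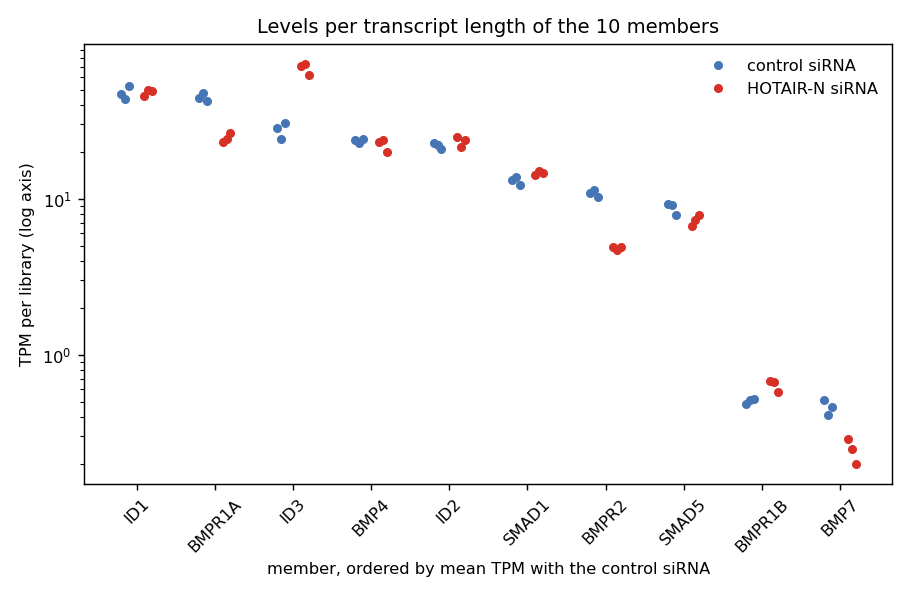
TPM per library (y axis, log scale) of the 10 members, ordered by their mean with the control siRNA, with 1 point per library. ID3 stands above ID1 only in the HOTAIR-N siRNA libraries, at 62.6 to 73.2 TPM against 24.2 to 30.6 TPM with the control siRNA.

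The deposited transcript tables list 31 RefSeq transcripts of the members, of which 20 passed the filter. Of these 3 were called, against 32% of all 32285 transcripts tested. They were the single annotated transcripts of BMPR1A (NM_004329, log2 fold change -0.89, SE 0.07, edgeR adjusted p = 0.00037), BMPR2 (NM_001204, -1.19, SE 0.05, adjusted p = 6.9e-05) and ID3 (NM_002167, 1.3, SE 0.11, adjusted p = 0.00054). The single transcripts of BMP7 (NM_001719) and ID2 (NM_002166) had log2 fold changes of -0.91 (SE 0.37, adjusted p = 0.12) and 0.07 (SE 0.09, adjusted p = 0.62) and were not called.

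None of the 15 tested transcripts of BMP4, BMPR1B, SMAD1, SMAD5 and ID1, which have 2 to 9 annotated forms, was called. Estimated shares varied widely between replicates in BMP4 and SMAD1. NM_001347914 of BMP4 took 48.2%, 54.8% and 23.6% of the gene's transcripts in the control libraries and 0%, 17.8% and 0% in the HOTAIR-N siRNA libraries, and its log2 fold change of -2.84 had an SE of 1.82 (edgeR adjusted p = 0.31). NM_130851 of BMP4 took 0%, 0% and 21.9% and then 64%, 13% and 31.2% (log2 fold change 2.16, SE 1.93, adjusted p = 0.48). In SMAD1, NM_001003688 took 55.8%, 63.1% and 96.2% and then 62.3%, 37.1% and 69.2%. These forms of BMP4 and SMAD1 therefore could not be told apart between the groups beyond their replicate spread.

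Forms of BMPR1B and SMAD5 had the smallest p-values among these transcripts. NM_001256794 of BMPR1B was estimated at 0%, 0% and 18% of the gene with the control siRNA and at 86.1%, 100% and 100% with the HOTAIR-N siRNA. That rested on 0, 0 and 9.45 counts against 60.2, 62 and 56 counts, so it passed the filter through the HOTAIR-N siRNA libraries. The transcript was not called (SE of the log2 fold change 1.52, edgeR adjusted p = 0.086). Other forms of BMPR1B varied widely between the control libraries. There NM_001256793 took 34.6%, 100% and 0% of the gene and NM_001203 65.4%, 0% and 29.6%, and neither was tested. In SMAD5, NM_001001420 had a log2 fold change of -0.96 (SE 0.36, adjusted p = 0.1) and NM_005903, the main form, one of -0.02 (SE 0.13, adjusted p = 0.94). ID1 was nearly all NM_002165, at 94% to 96.5% and 94.7% to 97.9% of the gene.

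No member was called for a change in transcript usage by edgeR's diffSpliceDGE, while 6.42% of 7465 genes were. The test was possible in BMP4, SMAD1, SMAD5 and ID1, whose unadjusted edgeR Simes p-values were 0.39, 0.76, 0.29 and 0.91. Without control siRNA replicate 3 BMPR1B was called for usage (adjusted p = 0.021), and without HOTAIR-N siRNA replicate 2 BMP4 was (adjusted p = 0.048). The count of called transcripts was 5 without control siRNA replicate 2, 6 without control siRNA replicate 3 and 5 without HOTAIR-N siRNA replicate 1. The additions were forms of BMP4 and BMPR1B.

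**Figure D3:**
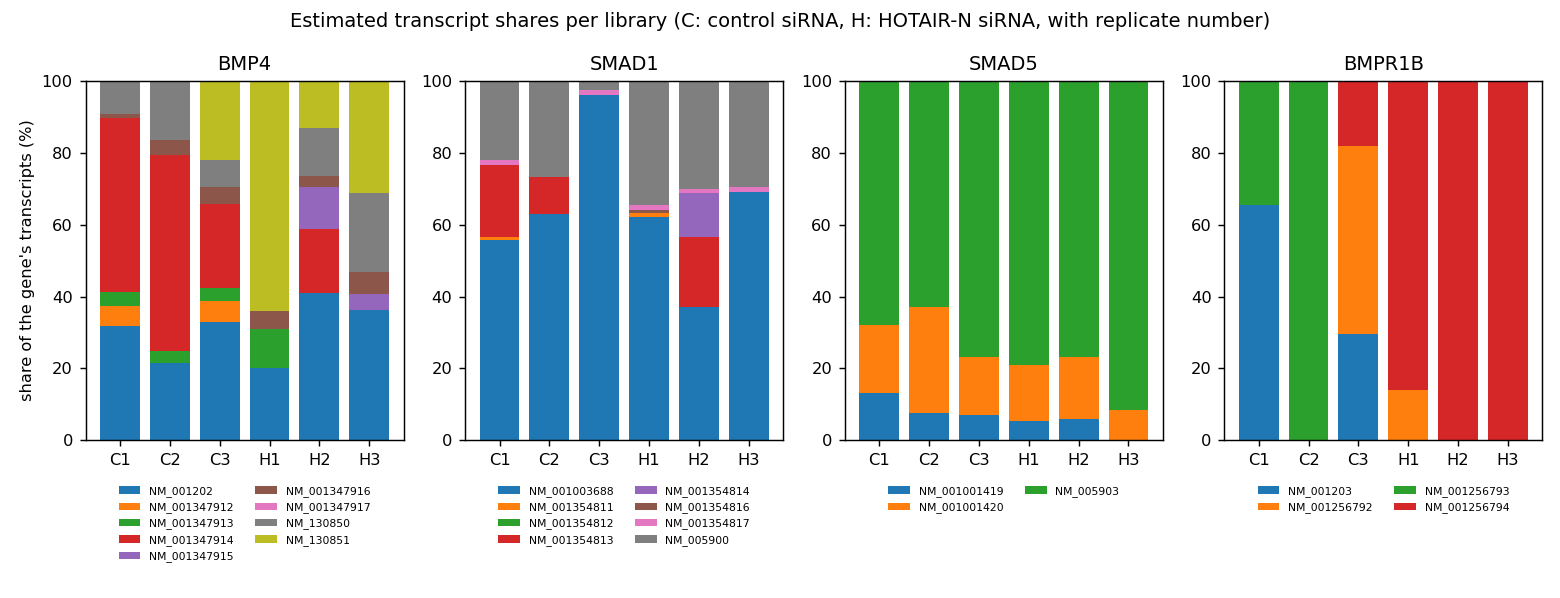
Estimated share of each annotated transcript in its gene (y axis, percent) in each library (C1 to C3, control siRNA; H1 to H3, HOTAIR-N siRNA) for BMP4, SMAD1, SMAD5 and BMPR1B. The shares of BMP4 and SMAD1 differ between replicates of a group, as do those of BMPR1B between control libraries. NM_001256794 takes 86.1% to 100% of BMPR1B in the HOTAIR-N siRNA libraries, from few counts.

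A sequence feature was looked up in the members because an earlier pass over these same fold changes had picked it out. The letters GACCAAT in 3′ UTRs were picked in that pass for going with lower genes. That pass was not repeated here and its values are not shown. What the members show is a description and no support for it. The siRNA's own sequence was not used here. All 10 members were matched to a GENCODE 29 transcript through its RefSeq accession, the longest one where there were several. The letters were found in BMP7, BMPR1A and SMAD5, and not in BMP4, BMPR1B, BMPR2, SMAD1, ID1, ID2 or ID3. The matches are shown with up to 10 bases on either side and GACCAAT in capitals.
BMP7, 3′ UTR, transcript positions 3897 to 3903: ttaatggttgGACCAATgtactcacag
BMPR1A, 5′ UTR, transcript positions 490 to 496: gaagtagcaaGACCAATtattaaaggt
BMPR1A, coding region, transcript positions 915 to 921: aatgttgtcgGACCAATttatgtaacc
SMAD5, 3′ UTR, transcript positions 1888 to 1894: acataattgtGACCAATacatttgtat
BMP7 and SMAD5 hold the letters in the 3′ UTR, and the matches in BMPR1A lie outside it. BMPR2 has none in the 11461 bases searched, against 12070 in the deposited tables. Longer transcripts hold the letters more often, at 13.2%, 31.8% and 21.7% of tested genes with transcripts of a length like those of BMP7, BMPR1A and SMAD5. In the 3′ UTR the shares at such lengths were 6.87%, 16.6% and 9.96%, and 5.95% over 13232 tested genes. The BMPR1A transcript in GENCODE 29 has 11255 bases against 3616 in the deposited tables, so its 3′ UTR there may not be the one counted. For SMAD1 the transcript searched has 1966 bases, with 145 in its 3′ UTR, against 3053 in the deposited tables. The search may thus not have covered all of the form counted, nor all of that of BMPR2. For ID1 and SMAD5 the forms searched, NM_181353 and NM_001001419, were minor ones. On average they made up 4.74% and 9.33% of the gene with the control siRNA and 3.39% and 3.74% with the HOTAIR-N siRNA. Whether the letters play any part in the falls was not tested.

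The other genes of the pathway changed about as often as genes at large. Of 73 listed, 49 were tested and 35 called (71.4%, against 71.1% of all genes), 15 higher and 20 lower, with a median log2 fold change of -0.11. The plot of the pathway's fold changes orders them by role, and no difference between roles was tested.

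Among the 13 further ligands only AMH, BMP8A and BMP8B were expressed highly enough to be tested, and none of the others, BMP2 and BMP6 among them, had more than 6 counts in a library. AMH, which signals through BMP type I receptors, rose 1.71-fold from 2.07 ± 0.32 to 3.54 ± 0.252 CPM and BMP8A 1.65-fold from 3.19 ± 0.237 to 5.27 ± 0.997 CPM (SD, n = 3, edgeR adjusted p = 0.00036 and 0.0006). BMP8B, nearly identical in sequence to BMP8A so that reads may be split between them, was not called (log2 fold change 0.01, edgeR adjusted p = 0.94).

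Of 6 other receptors and co-receptors tested, 2 rose, 2 fell and 2 were not called (66.7% called, beside 71.1% of all genes). The type I receptor gene ACVR1 rose 1.35-fold from 7.94 ± 0.594 to 10.7 ± 0.558 CPM (SD, n = 3, adjusted p = 0.00053). The type II receptor gene ACVR2B rose 1.18-fold and ACVR2A fell to 80.6% of control (edgeR adjusted p = 0.0095 and 0.01). Neither was called against a 1.2-fold change, ACVR2B was not called without control siRNA replicate 3 (adjusted p = 0.057), and ACVR2A was not called with library totals alone (adjusted p = 0.056). The co-receptor gene RGMA fell to 74.8% of control (adjusted p = 0.006, and 0.069 against a 1.2-fold change), and RGMB, the more abundant co-receptor at 17.3 TPM with the control siRNA, was not called (log2 fold change -0.10, edgeR adjusted p = 0.087).

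SMAD4, the partner shared with TGF-beta signalling, and SMAD9 were not called, with log2 fold changes of 0.03 (SE 0.06, 95% interval -0.11 to 0.17) and -0.09 (SE 0.22, edgeR adjusted p = 0.69 and 0.71).

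Of 13 tested secreted antagonists and modulators, 5 were higher and 5 lower, or 76.9% called beside 71.1% of all genes. FSTL1, a follistatin-related protein that antagonizes BMPs, fell to 23.9% of control, from 25.2 ± 0.498 to 6.02 ± 0.682 CPM (SD, n = 3, adjusted p = 6.4e-10). BMPER, a BMP-binding protein, fell to 22.7% of control from 2.14 ± 0.181 CPM (SD, n = 3, adjusted p = 8.4e-07), and NBL1, also known as DAN, to 59.5% (adjusted p = 1.9e-06). FSTL3, which binds activins and some BMPs, rose 2.52-fold from 8.25 ± 0.515 to 20.8 ± 2.44 CPM (SD, n = 3, adjusted p = 8e-08) and SOSTDC1, an antagonist of BMP and Wnt signals, 2.68-fold from 1.34 ± 0.258 CPM (SD, n = 3, adjusted p = 6e-06). By TPM, NBL1 was the highest of these at 58.9 and 36 TPM.

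Of 13 tested inhibitors at the membrane and inside the cell, 8 were lower, 3 higher and 2 not called, beside 34.8% lower and 36.2% higher over all genes. The difference from all genes was not tested. CTDSP2, CTDSP1 and CTDSPL encode phosphatases of the SCP family, which remove phosphate from SMADs. CTDSP2 fell from 260 ± 3.12 to 85.8 ± 1.69 CPM (SD, n = 3) or 33.1% of control, CTDSP1 to 46.5% and CTDSPL to 67.8% (edgeR adjusted p = 4.8e-11, 3.1e-08 and 7.8e-07). TOB1, an antiproliferative protein that can bind SMADs, fell from 239 ± 4.35 to 91.8 ± 4.83 CPM (SD, n = 3, adjusted p = 2.7e-10), and the corepressor gene SKI to 66.2% of control (adjusted p = 7.7e-07). The inhibitory SMADs, which are also induced by the pathway, parted. SMAD6 rose 1.52-fold from 2.77 ± 0.536 to 4.23 ± 0.0018 CPM (SD, n = 3, adjusted p = 0.0017), and SMAD7 fell to 84.4% of control from 13.3 ± 0.0556 CPM (SD, n = 3, adjusted p = 0.0043). SMAD6 and SMAD7 were named after their values were seen.

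Of 9 other target genes tested, 2 rose, 3 fell and 4 were not called (55.6% called, beside 71.1% of all genes). MSX2, a homeobox gene, fell from 60.9 ± 1.52 to 27.5 ± 0.531 CPM (SD, n = 3, adjusted p = 1.9e-09), and DLX5 fell to 33.3% of control from only 11 to 14 counts (adjusted p = 0.0036). DLX3 rose 1.43-fold and RUNX2 1.22-fold (edgeR adjusted p = 0.00012 and 0.0031, the latter 0.29 against a 1.2-fold change). HEY1 had 12 to 14 counts with the control siRNA and 4 to 9 with the HOTAIR-N siRNA (log2 fold change -0.95, adjusted p = 0.028). Its fall was not called by DESeq2 (adjusted p = 0.14). Nor was it when replicate 1 or 2 of the control siRNA, or 2 or 3 of the HOTAIR-N siRNA, was left out (adjusted p = 0.058, 0.079, 0.052 and 0.12). DLX5 and HEY1 reached the filter's minimum count of 10 only in the control libraries, the group where they were higher. Their calls, and their part in the count of 3 that fell, carry that selection.

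All 3 E proteins, the partners that ID proteins bind, were called, in a comparison where 71.1% of all genes were. TCF12 fell to 61.7% of control from 91.4 ± 6.2 CPM and TCF3 to 70% from 88 ± 7.28 CPM (SD, n = 3, edgeR adjusted p = 3.6e-07 and 3.6e-05). TCF4 rose 3.99-fold, from 1.28 ± 0.187 to 5.09 ± 0.583 CPM (SD, n = 3, adjusted p = 1.5e-07). Per length TCF4 remained the lowest of them, at 1.27 TPM with the HOTAIR-N siRNA beside 31.7 TPM for TCF3 and 23.8 TPM for TCF12.

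**Figure D4:**
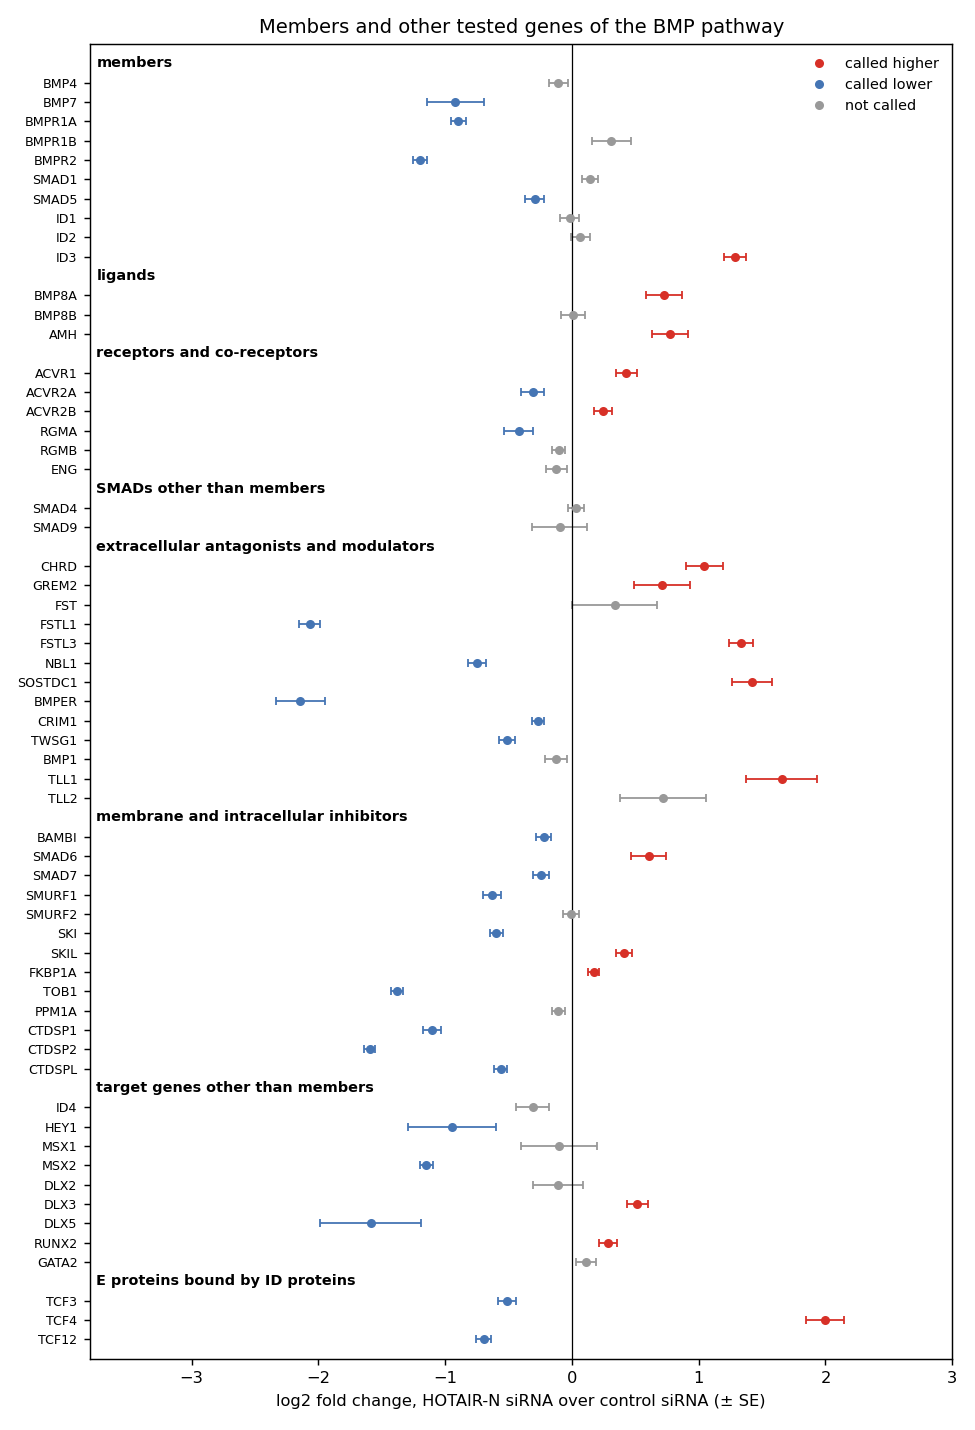
Log2 fold change, HOTAIR-N siRNA over control siRNA (x axis, ± SE), of the 10 members and, by role, of the other tested pathway genes except ID2-AS1, colored by call at an adjusted p under 0.05. BMPR2 and BMPR1A lie at -1.2 and -0.90 and ID3 at 1.29, and secreted antagonists lie on both sides of 0.

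Genes on the opposite strand could add reads to a member if the counting did not use strand, and the sources used here give no such setting. In GENCODE 29 exons on the other strand overlap exons of SMAD1, SMAD5 and ID2. SMAD1-AS1 was listed at 0 in all 6 libraries and SMAD5-AS1 had at most 3 counts in a library. ID2-AS1 had 15, 8 and 8 counts with the control siRNA and 13, 22 and 22 with the HOTAIR-N siRNA, beside 449 to 581 counts of ID2. Among the control libraries it reached the filter's minimum count of 10 only in replicate 1, so it was tested mainly through the group where it was higher. It was called higher (log2 fold change 0.88, SE 0.35, adjusted p = 0.038) although the groups overlapped, and was not called by DESeq2 (adjusted p = 0.11) or when replicate 2 or 3 of either group was left out (adjusted p of 0.11 to 0.13).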

How the data were processed

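RNA of 6 libraries was measured after ribosomal RNA removal with a stranded total RNA kit, per the labels' protocols. The submitters' processing notes name STAR 2.6.0c, RSEM 1.3.0 and hg19 but give no settings and no strand option. Per the file headers, the deposited tables hold expected counts per gene and transcript as RSEM estimates them, TPM, and the percent of each transcript in its gene.

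Expected counts were rounded, filtered with filterByExpr (minimum count 10, minimum total 15), given TMM scaling, and compared by the quasi-likelihood test of edgeR 4.0.16 (R 4.3.3) over all genes, or over all transcripts, with Benjamini-Hochberg adjustment. Every adjusted p without another tool's name is from this test, with 2 exceptions. Values against a 1.2-fold change are from edgeR's glmTreat, and values for usage are from diffSpliceDGE. SE is the log2 fold change divided by the root of F. CPM uses the TMM-scaled library sizes, where 1 CPM is 32.9 to 36.4 counts. Usage was tested with diffSpliceDGE and Simes p. The fits were tested on simulated counts with few changed features and a fixed spread. These data differ from that setting, so the simulation cannot show how the fits perform here. The libraries of a group differed beyond sampling noise (smallest chi-square over its degrees of freedom 2.16), and p-values measure the spread between these transfections of 1 cell line. HJV was listed under its older name HFE2 and matched by synonym.

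Alternatives were DESeq2 1.42.0, limma-voom (limma 3.58.1), other scalings and filters, a replicate block, a 1.2-fold threshold and left-out libraries. Leaving out a pair of libraries was chosen after seeing the data. The members and lists were chosen with earlier results of these data known. Named genes are the members, HOTAIR and, per role of the wider list, up to 5 tested genes with the smallest p. ID4, SMAD6 and SMAD7 were added after their values were seen. Promoters of 9 of the 10 members were matched by symbol, and those of the ID genes are shown.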

Additional observations from a re-analysis of the deposited data

How the results depend on the processing

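Over the alternatives the count of called members was 4 to 7 and that of the wider pathway 26 to 38, each within 1.5 times the value reported. BMPR1A, BMPR2 and ID3 were called in all of them. With library totals alone or upper-quartile scaling 3 members rose and 4 fell, against 1 and 4, and the median log2 fold change of all genes was 0.12 and 0.08, against 0.02. BMP7 fell outside a filter of 1 CPM in 3 libraries. Against a 1.2-fold change 6876 genes were called. With 1 library left out, 9906 to 10727 genes, 5 to 6 members, 34 to 38 wider genes, 3 to 6 transcripts and 0 to 1 members by usage were called. With the replicate block, 10010 genes, 5 members, 35 wider genes, 4 transcripts (SMAD5 NM_001001420 added, adjusted p = 0.041) and 0 members by usage were called. Libraries of the same number did not deviate together (r of -0.21 to -0.04 across genes). The labels name no pairing, and a lack of shared deviation cannot show whether libraries were made in pairs.

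The sign of genes near 0 turned, none of them called. ID1 was at 0.0805 with library totals alone, 0.0396 with upper-quartile scaling and -0.0815 to 0.0517 with 1 library left out. BMP8B was at -0.0024 with DESeq2 size factors, -0.0024 with DESeq2 and -0.0105 without a filter. It was at -0.0722 to 0.0695 with 1 library left out and at -0.125 without the pair of libraries that deviated most alike. SMAD4 ranged from -0.0167 to 0.0767 with 1 library left out. SMAD9 was at 0.0037 with library totals alone, -0.27 to 0.0443 with 1 library left out and 0.125 without that pair. The cause was not tested. Low counts limit the precision of HEY1, DLX5, ID2-AS1, BMP7 and BMPR1B, and HEY1 and ID2-AS1 were not called under several alternatives.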
